A study of Mus musculus with 8 samples.

Results

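The interferon-stimulated genes, those that interferons switch on, were followed in 8 RNA-seq libraries of mouse liver through 46 genes listed by symbol. Of the 46, 45 had a line in the deposited table, and 44 reached 10 normalized reads in 4 or more libraries and entered the tests, of 14390 genes tested in all. One set of libraries came from WT females, whose ancestors were all wild type (4 libraries). The other, F2_outcross, came from females that are genetically wild type themselves but whose maternal grandmother was Khdc3-null (4 libraries). Khdc3 encodes a protein of the oocyte's maternal complex, and neither group carries the mutation. The labels name the tissue liver and the cell type hepatocyte, while age, housing and batch were not given in the sources used here. Nothing states that each library came from a separate mouse, so p-values measure only the spread between these libraries.

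Interferons are secreted proteins that warn cells of infection. Type I interferons bind the receptor of IFNAR1 and IFNAR2 and lead, through JAK1 and TYK2, to a complex containing STAT2 and IRF9 that binds a DNA element called the interferon-stimulated response element (ISRE). Interferon gamma, made by T and natural killer cells, binds IFNGR1 and IFNGR2 and leads to the binding of a DNA element called the gamma-activated site (GAS), and IRF1 then adds to the response. In mice, interferon gamma is the chief inducer of the guanylate-binding proteins (Gbp) and immunity-related GTPases (Irg), which attack the vacuoles of intracellular parasites and bacteria. Type I interferon is the chief inducer of the Ifit, Oas and Mx genes, which act against viral RNA and viral particles. Many of the genes answer to both kinds. In liver, hepatocytes and Kupffer cells, the resident macrophages, both respond.

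The genes were placed in 3 groups by their known roles: 12 GTPases (11 tested), 22 antiviral genes (22 tested) and 12 regulators of the response (11 tested). The member without a test among the GTPases was Gbp6, which had 15.6, 5.05, 9.40 and 7.02 normalized reads in WT and 2.63, 3.84, 1.73 and 0.975 in F2_outcross, under the minimum. The member without a line was Ddx58, an RNA sensor. The table has a line for Rigi, the current symbol of that gene, and its values are given apart from the counts of members.

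The DNA just before the start of transcription shows the elements that the 2 pathways use. RefSeq promoter windows (build GRCm38.p6, 250 bases before to 50 after each start) matched 33 of the 46 genes. The ISRE was searched as GAAANNGAAA and the GAS as TTCNNNGAA, on both strands, and a match describes the letters only. The ISRE was in 22 of the 33 genes (66.7%) and the GAS in 12 (36.4%), against 3.99% and 9.55% of all 27025 genes with a window. By window, 3.44% of all 32851 windows held the ISRE and 8.30% the GAS. Of 10 GTPases matched, 9 held the ISRE and 6 the GAS; of 15 antiviral genes, 9 and 5; of 8 regulators, 4 and 1. In 1 of these promoters, that of Bst2, an ISRE match overlapped a GAS match.

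In 4 GTPases, Igtp, Irgm2, Tgtp1 and Tgtp2, the same arrangement recurred: a GAS, 2 bases, then an ISRE, so that the ISRE begins 11 bases after the GAS. Among all 27025 genes with a window, 166 held both elements and 5 had this spacing; the other was Gm12185, which shares 223 exonic bases with Tgtp1 on the same strand. The 110 bases before the start are shown for these 4, 5′ to 3′ on the gene's strand, with both elements in capitals, because they show this arrangement and because Tgtp1 had the largest difference of all members. The spacing was counted after it was seen in these 4. They lie at chr11:58199446-58199555 (+, Igtp), chr11:58214867-58214976 (+, Irgm2), chr11:48992247-48992356 (-, Tgtp1) and chr11:49064213-49064322 (-, Tgtp2).
Igtp: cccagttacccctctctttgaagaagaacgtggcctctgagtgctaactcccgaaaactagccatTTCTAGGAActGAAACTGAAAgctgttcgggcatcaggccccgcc
Irgm2: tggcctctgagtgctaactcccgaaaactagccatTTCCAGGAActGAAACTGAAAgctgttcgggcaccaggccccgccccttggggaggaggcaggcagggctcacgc
Tgtp1: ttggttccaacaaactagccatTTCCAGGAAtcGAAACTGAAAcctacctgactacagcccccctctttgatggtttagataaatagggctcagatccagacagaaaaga
Tgtp2: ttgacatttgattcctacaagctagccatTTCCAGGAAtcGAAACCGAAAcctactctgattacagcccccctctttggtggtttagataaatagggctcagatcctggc

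The longest run of letters shared by Igtp and Irgm2 in these stretches is 38 bases, that shared by Tgtp1 and Tgtp2 is 27, and that shared by all 4 is 11. For contrast, Gbp2 (chr3:142620553-142620662, +) and Gbp3 (chr3:142559934-142560043, +) have no GAS match in their windows, and the antiviral genes Isg15 (chr4:156200819-156200928, -) and Ifit1 (chr19:34640779-34640888, +) have ISRE matches only. The capitals mark the ISRE matches, which overlap each other in Gbp3 and Isg15 and read on the other strand in Gbp2, Gbp3 and Ifit1.
Gbp2: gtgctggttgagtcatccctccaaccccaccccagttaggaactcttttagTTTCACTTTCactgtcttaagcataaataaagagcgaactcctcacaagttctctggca
Gbp3: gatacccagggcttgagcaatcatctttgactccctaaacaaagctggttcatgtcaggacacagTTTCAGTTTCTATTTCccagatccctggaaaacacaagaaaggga
Isg15: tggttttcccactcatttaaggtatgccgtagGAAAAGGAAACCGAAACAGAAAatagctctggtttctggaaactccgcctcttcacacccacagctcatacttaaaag
Ifit1: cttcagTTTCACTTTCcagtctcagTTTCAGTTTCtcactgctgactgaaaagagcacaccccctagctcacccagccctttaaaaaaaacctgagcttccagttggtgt

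Each library held 28028650 to 35843972 reads, and 1 read was worth 0.779 to 1.04 normalized reads, so members near 10 normalized reads rest on about that many reads, and a count of 0 allows up to 3. No library was a copy of another. Levels below are normalized reads, the counts of the deposited table after scaling between libraries. Differences are log2 fold changes of normalized reads + 1, F2_outcross minus WT, with a standard error and a two-sided p from limma adjusted by Benjamini-Hochberg over all 14390 genes (threshold 0.05). Adding 1 understates the change of low genes. WT replicate 2 stands apart from the other WT libraries for these genes, and counts of calls are therefore also given without it and without WT replicate 1, the WT library at the other end.

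The interferon-stimulated genes leaned to lower values in F2_outcross, and few passed the test. Ifi47, an interferon-gamma GTPase, was 1.89-fold lower and Ifi27l2a, a small interferon-induced protein, 3.09-fold lower. No member was called higher, and 42 were not called. Of the 44, 40 had a negative log2 fold change, against 51.1% of all tested genes, and their median was -0.50, against -0.01 over all genes. The 2 called lower compare with 1.06% of all tested genes called lower, and the absence of a higher call with 1.60% of all genes called higher. At an unadjusted p under 0.05, 18 members were lower and 0 higher, where 11.0% of all genes were lower. In 5 of 44 members every F2_outcross library lay below every WT library, against 784 of 14390 genes tested (5.45%).

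The lean was set out by role. All 11 GTPases had a negative difference, with a median of -0.92 and a range of -1.90 to -0.22. Of the 22 antiviral genes, 21 were negative, with a median of -0.50 and a range of -1.63 to 0.12. The 11 regulators had a median of -0.17, with 8 negative and 3 positive, from -0.91 to 0.05. One GTPase, 1 antiviral gene and 0 regulators were called, and 7, 8 and 3 had an unadjusted p under 0.05. These are descriptions of lists, and the difference between the groups was not tested.

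**Figure D1:**
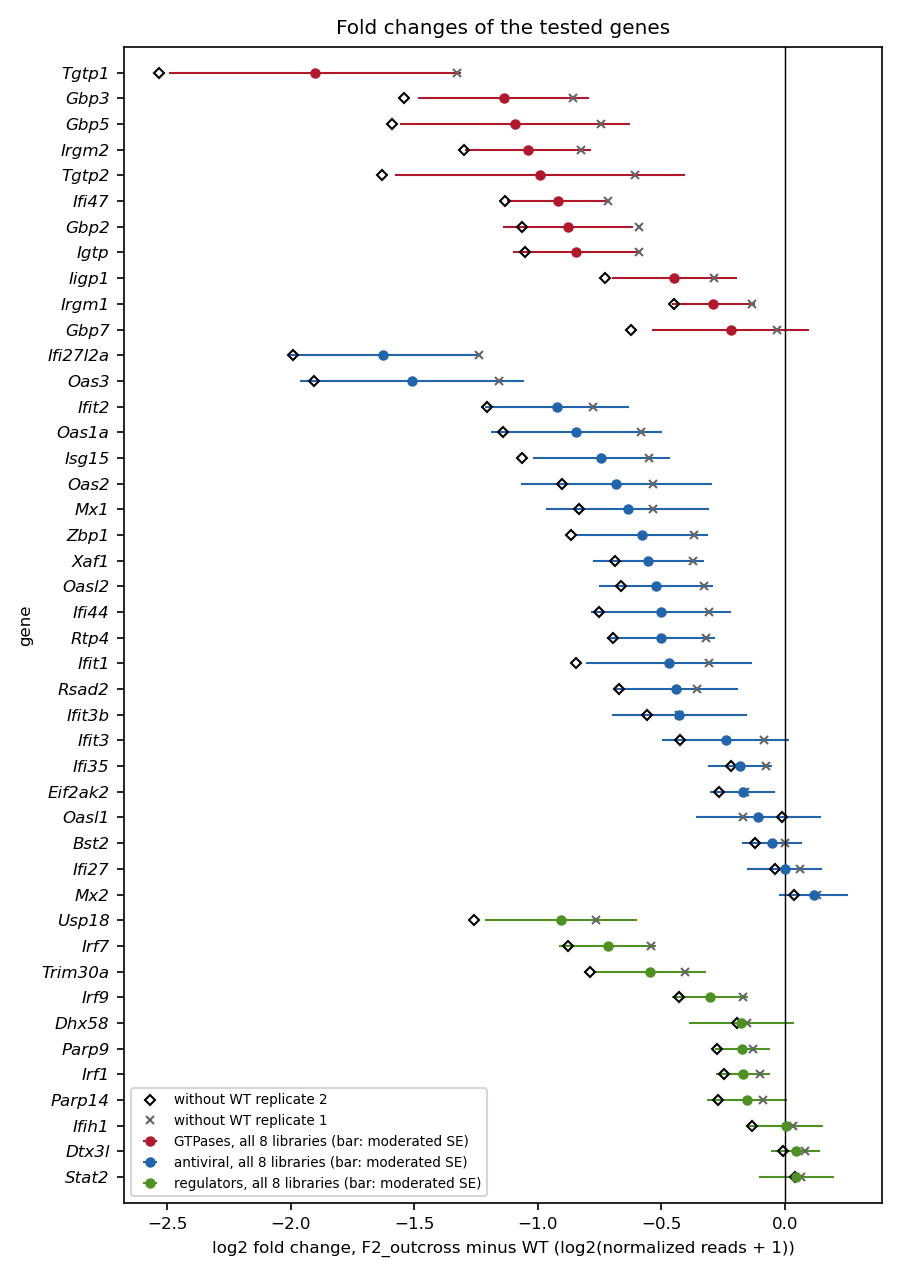
Log2 fold change of each tested member (x axis, F2_outcross minus WT, log2 of normalized reads + 1) with its standard error from limma, grouped by role, and the same difference without WT replicate 2 (open diamonds) and without WT replicate 1 (crosses). With all libraries, the 11 GTPases all lie left of 0, from -1.90 to -0.22, while the regulators end at 0.05.

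Upstream of the members, few ligands could be measured and no receptor passed the test. Ifng had 7.79, 0, 2.09 and 1.56 normalized reads in WT and 0, 0, 0.867 and 0 in F2_outcross, under the minimum for the tests. It was at or near 0 in every library but WT replicate 1, too few reads to compare libraries. Of 12 ligands listed, 3 had a line and 1, Ebi3, a subunit of interleukin 27, could be tested (adjusted p = 0.318). Of the 8 receptors and kinases tested, 0 passed the test with limma and 1 had an unadjusted p under 0.05, Il10rb, a subunit shared by the interferon lambda receptor, at 263 ± 49.7 in WT and 189 ± 14.9 in F2_outcross (SD, n = 4 each; adjusted p = 0.108). Ifnar1 was at 1152 ± 67.6 in WT and 1185 ± 45.1 in F2_outcross (SD, n = 4 each), a difference of 0.04 ± 0.09. Ifngr1 was at 810.4 ± 137 and 711 ± 76.9, a difference of -0.18 ± 0.13.

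Of the 11 regulators, 0 passed the test, and the 3 with an unadjusted p under 0.05 were Irf7, Usp18 and Trim30a. Irf7, which drives the second wave of type I interferon, had 639, 316, 395 and 477 normalized reads in WT and 251, 291, 316 and 225 in F2_outcross. The groups touched without overlapping, at WT replicate 2 and F2_outcross replicate 3, and the difference of -0.72 ± 0.20 did not pass the test (adjusted p = 0.0717). Usp18, which removes ISG15 from proteins and blocks the type I receptor, had 216, 76.8, 163 and 247 in WT and 72.0, 110.3, 88.4 and 76.0 in F2_outcross. Its lowest WT library, replicate 2, lay inside the F2_outcross range (-0.91 ± 0.31, adjusted p = 0.123). Trim30a, a ubiquitin ligase family member that restrains inflammatory signalling, had 341, 153, 232 and 341 in WT and 156, 179, 201 and 159 in F2_outcross. WT replicate 2 was the lowest of its 8 libraries (-0.55 ± 0.23, adjusted p = 0.199).

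The regulators with the highest counts differed little. Stat2, a subunit of the ISRE-binding complex, had 1742, 1653, 1568 and 1724 in WT and 1672, 1539, 2449.6 and 1407 in F2_outcross, with F2_outcross replicate 3 high and the groups overlapping (0.05 ± 0.15). Irf1 had 2265, 1661, 1872 and 2102 in WT and 1856, 1707, 1690.0 and 1735 in F2_outcross (-0.17 ± 0.11, adjusted p = 0.407). WT replicate 2 was the lowest library of Irf1, and its groups overlapped too. Parp9 and Dtx3l, which form a complex that modifies interferon responses, lie head to head on chromosome 16 and share 458 exonic bases on opposite strands, so that without a stated strand setting in the counting their reads cannot be fully told apart. Parp9 had 2033, 1503, 1954 and 1984 in WT and 1628, 1628, 1565 and 1766 in F2_outcross (-0.17 ± 0.11). Dtx3l had 2030.1, 1692, 1899 and 1911 in WT and 1902, 1820.0, 1859 and 2187 in F2_outcross (0.04 ± 0.10). The other 4, Irf9, the DNA-binding subunit of the ISRE-binding complex, the ADP-ribosyltransferase Parp14, and the RNA sensors Ifih1 and Dhx58, had differences between -0.30 and 0.01 and overlapping groups. Rigi, the gene listed as Ddx58, had 927, 859.9, 908 and 1045 in WT and 735, 818, 841 and 635 in F2_outcross. Its groups did not overlap and the difference of -0.31 ± 0.12 did not pass the test (adjusted p = 0.157).

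Of the 11 GTPases, all with a negative difference, 1 passed the test. Ifi47, also called Irg47, lies on chromosome 11 at 49076587 to 49096974 of GRCm38 and had 1494, 629, 958 and 1016 normalized reads in WT and 459, 542, 583 and 492 in F2_outcross. Every F2_outcross library was below every WT library, by a gap of 583 against 629 at the closest point (-0.92 ± 0.21, adjusted p = 0.038). Its promoter window held neither element, and 111 of its exonic bases are shared with Olfr56 on the same strand. In all, 9 of 45 members share exonic bases with another gene on the same strand and 11 on the opposite strand. Irgm2, a regulatory GTPase that holds the effector GTPases inactive on the cell's own membranes, had 3804, 1419.7, 2255 and 2919 in WT and 1083, 1085, 1663 and 1016 in F2_outcross. Only F2_outcross replicate 3 exceeded the lowest WT library, and the difference of -1.04 ± 0.26 lay just outside the threshold (adjusted p = 0.0522).

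Igtp, also known as Irgm3, stands beside Irgm2 within 23.2 kb on chromosome 11 and shares 162 exonic bases with it on the same strand, so some of their reads may be exchanged. It had 4198, 1611, 2236 and 2475 in WT and 1008, 1768, 1605 and 1249.6 in F2_outcross. F2_outcross replicate 2 lay above WT replicate 2, the other F2_outcross libraries below all WT (-0.85 ± 0.25, adjusted p = 0.0911). The third regulatory GTPase, Irgm1, had 2961, 1546, 1884 and 2453 in WT and 1631, 1829.6, 1834 and 1730.1 in F2_outcross. WT replicate 2 fell below all 4 F2_outcross libraries and the other WT libraries lay above them (-0.29 ± 0.17, adjusted p = 0.35).

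Iigp1, the effector GTPase that coats parasite vacuoles, had the highest count of all members. It had 16415, 6556, 13388 and 13370.4 in WT and 8768, 7467, 7157 and 11910.0 in F2_outcross. WT replicate 2 was the lowest of the 8 libraries and the other WT libraries the 3 highest, and the difference of -0.45 ± 0.25 did not pass the test (adjusted p = 0.335). Per kb of exons, Iigp1 averaged 2135 normalized reads in WT, Igtp 1301 and Irgm2 704; among all members Bst2, a tethering factor that holds virus particles on the cell surface, was higher at 2922 per kb.

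Tgtp1 and Tgtp2 are near-identical copies on chromosome 11, and how reads shared by both were counted is not stated, so their separate values are uncertain. Tgtp1 had 186, 14.1, 84.6 and 40.6 in WT and 17.6, 11.5, 16.5 and 11.7 in F2_outcross. WT spanned 13.2-fold between replicates 1 and 2 while F2_outcross stayed within a few reads, and the largest log2 difference of any member, -1.90 ± 0.59, did not pass the test (adjusted p = 0.0992). Tgtp2 had 84.1, 9.09, 31.3 and 74.9 in WT and 17.6, 17.3, 33.0 and 10.7 in F2_outcross (-0.99 ± 0.59, adjusted p = 0.359). The lowest of its values rests on 9 reads.

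The guanylate-binding proteins lie in a row on chromosome 3, with Gbp5, Gbp7, Gbp3 and Gbp2 within 144 kb. Gbp2 had 964, 358, 428 and 529 in WT and 232, 243, 356 and 340.2 in F2_outcross, groups that meet without overlapping (-0.88 ± 0.26, adjusted p = 0.0922). Gbp3 had 651, 157, 345 and 488 in WT and 150.1, 149, 224 and 144 in F2_outcross, with F2_outcross replicate 3 above WT replicate 2 (-1.14 ± 0.34, adjusted p = 0.0937). Gbp5, which in macrophages also promotes inflammasome assembly, had 264, 44.5, 114 and 192 in WT and 65.0, 54.7, 96.2 and 35.1 in F2_outcross (-1.09 ± 0.46, adjusted p = 0.204). The 3 share the order WT replicates 1, 4, 3 and 2 from high to low with Gbp7, Ifi47, Irgm2, Igtp, Irgm1 and Tgtp2. In Iigp1 and Tgtp1, WT replicate 3 was above WT replicate 4. Gbp7 had 1067, 310.2, 794 and 1022 in WT and 547, 528, 776 and 650.1 in F2_outcross, so that WT replicate 2 was below all F2_outcross libraries and the other WT libraries above them (-0.22 ± 0.32, adjusted p = 0.733).

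**Figure D2:**
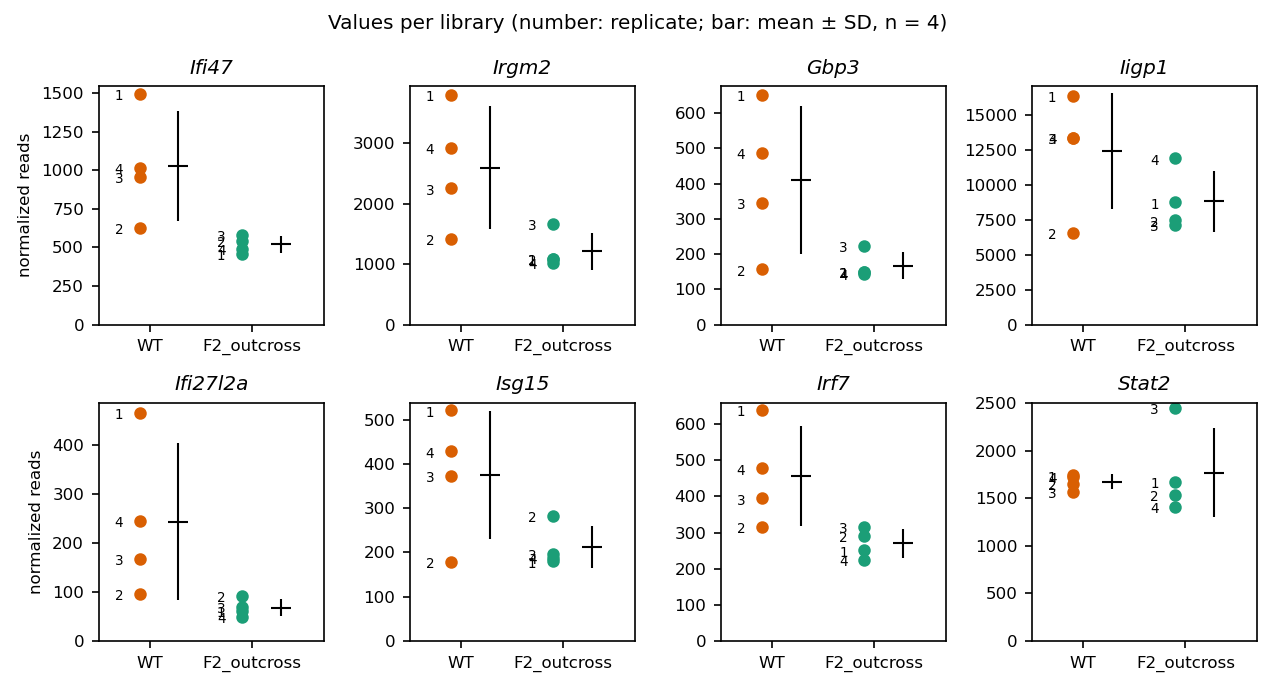
Normalized reads (y axis, linear from 0) of 8 members in each library, WT and F2_outcross side by side, with the replicate number at each point and the group mean ± SD beside it (n = 4). WT replicate 1 is at the top and WT replicate 2 at the bottom of WT in the GTPases shown, as in Ifi47 with 1494 and 629, and the 4 F2_outcross libraries of Ifi47 lie between 459 and 583.

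Of the antiviral genes, 1 of 22 passed the test. Ifi27l2a had 466, 97.0, 168 and 245 in WT and 61.5, 92.1, 70.2 and 49.7 in F2_outcross. The groups did not overlap, with WT replicate 2 at 97.0 next to F2_outcross replicate 2 at 92.1 (-1.63 ± 0.38, adjusted p = 0.0434). Its neighbour Ifi27, of the same family and within 9.47 kb on chromosome 12, had 1126, 907, 1113 and 831 in WT and 1172, 1132, 936 and 759 in F2_outcross. The groups of Ifi27 were the same in mean within their spread, 994 ± 148 and 999.6 ± 191 (SD, n = 4 each; difference 0.00 ± 0.15).

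The Oas genes make or resemble the enzyme that senses double-stranded RNA and turns on RNase L. Oas3 had 84.9, 17.2, 27.1 and 65.5 in WT and 14.9, 15.3, 16.5 and 8.77 in F2_outcross, groups that do not overlap but meet at 17.2 and 16.5 (-1.51 ± 0.45, adjusted p = 0.092). Its lowest value rests on 9 reads. Oas1a had 95.8, 29.3, 42.8 and 77.2 in WT and 41.3, 30.7, 28.6 and 23.4 in F2_outcross (-0.84 ± 0.35, adjusted p = 0.189). Oasl2, a related protein with ubiquitin-like domains, had 155, 76.8, 78.3 and 122 in WT and 72.9, 82.5, 62.4 and 70.2 in F2_outcross (-0.52 ± 0.23, adjusted p = 0.219). In each of the 3, WT replicates 1 and 4 were the 2 highest libraries. Oas2 and Oasl1 had differences of -0.68 ± 0.38 and -0.11 ± 0.25, neither with an unadjusted p under 0.05.

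The Ifit proteins bind viral RNA and stand in a row of 4 within 99.3 kb on chromosome 19. Ifit2 had 190.0, 76.8, 124 and 209 in WT and 72.9, 92.1, 79.8 and 53.6 in F2_outcross, with WT replicate 2 inside the F2_outcross range (-0.92 ± 0.29, adjusted p = 0.102). Ifit1, Ifit3 and Ifit3b had differences of -0.47 ± 0.34, -0.24 ± 0.26 and -0.43 ± 0.27, with overlapping groups; Ifit3 and Ifit3b are close copies, and reads shared by both may have been split. Isg15, a ubiquitin-like protein joined to others during infection, had 521, 179, 374 and 428 in WT and 180.0, 282, 198 and 188 in F2_outcross. WT replicate 2 was the lowest of the 8 and the other WT libraries the highest 3 (-0.74 ± 0.28, adjusted p = 0.158).

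The other 2 antiviral genes with an unadjusted p under 0.05 were Xaf1 and Rtp4. Xaf1, which promotes cell death, had 205, 105, 105 and 169 in WT and 97.5, 107, 101 and 78.0 in F2_outcross (-0.55 ± 0.22, adjusted p = 0.186). Rtp4, an interferon-induced receptor-transporting protein, had 522, 237, 302 and 438 in WT and 209.8, 292, 242 and 275 in F2_outcross (-0.50 ± 0.22, adjusted p = 0.215). WT replicates 1 and 4 were the 2 highest of 8 in both.

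The most abundant antiviral genes beside Ifi27 differed little. Bst2 had 2936, 2278, 2719 and 2623 in WT and 2381, 3080.1, 2509 and 2242 in F2_outcross (-0.05 ± 0.12). Ifi35 had 1069, 796, 843 and 756 in WT and 728, 888, 754 and 675 in F2_outcross (-0.18 ± 0.13). Eif2ak2, the kinase PKR that stops translation on sensing double-stranded RNA, had 639, 511, 625 and 744 in WT and 516, 650.2, 549 and 514 in F2_outcross (-0.17 ± 0.13). The groups overlapped in all 3. Of the remaining antiviral genes, Mx2 was the one with a positive difference (0.12 ± 0.14), while its neighbour Mx1 had -0.64 ± 0.33; Zbp1, a sensor of Z-form nucleic acid, had -0.58 ± 0.27, Ifi44 -0.50 ± 0.28 and Rsad2, which makes a chain-ending nucleotide, -0.44 ± 0.25. None of these 5 had an unadjusted p under 0.05.

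**Figure D3:**
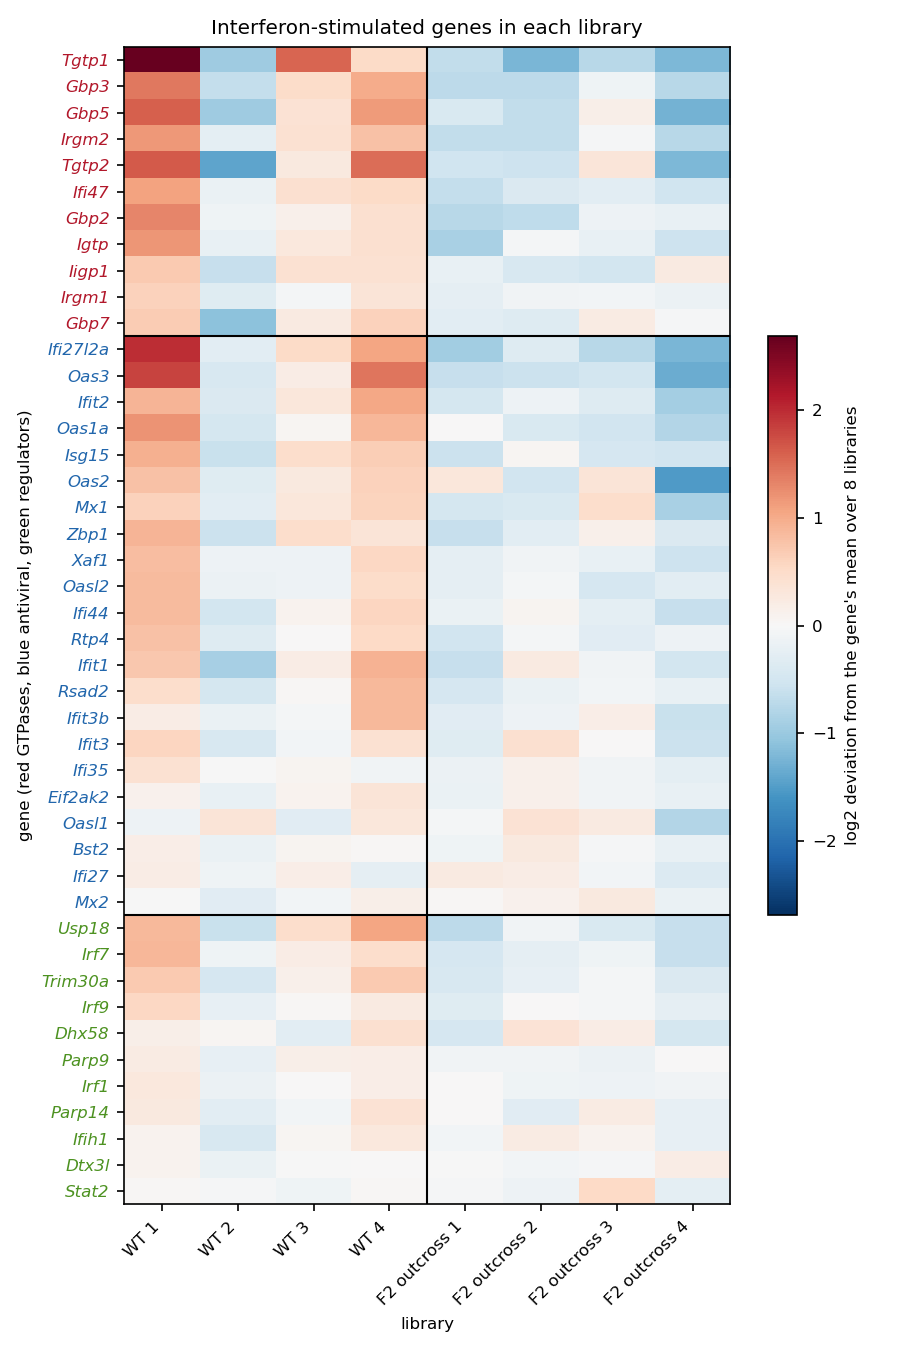
Deviation of each tested member (rows, by role) in each library (columns) from its mean over the 8 libraries, on the log2 scale of normalized reads + 1. WT replicate 1 and WT replicate 4 are high for most members, WT replicate 2 is at the level of the F2_outcross libraries, and the rows of Dtx3l, Ifi27 and Bst2 are pale throughout.

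The order of the libraries recurred from member to member. WT replicate 1 was the highest of the 8 libraries in 29 of 44 members, 11 of 11 GTPases, 13 of 22 antiviral genes and 5 of 11 regulators. WT replicate 2 was the lowest WT library in 39 of 44, including 11 of 11 GTPases, and lay inside the F2_outcross range in 25. F2_outcross replicate 4 was the lowest of the 8 in 20 members, 14 of them antiviral genes, whereas F2_outcross replicate 3 was the highest F2_outcross library in 8 of 11 GTPases. The median deviation from the mean of 8 libraries was 0.71, -0.29, 0.14 and 0.50 in WT replicates 1 to 4 and -0.33, -0.12, -0.08 and -0.48 in F2_outcross replicates 1 to 4. For the GTPases alone, it was 1.19, -0.62, 0.39 and 0.52 in WT and -0.63, -0.57, -0.12 and -0.56 in F2_outcross.

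The spread of the members was wider in WT than in F2_outcross. Their median SD on the log2 scale was 0.50 in WT and 0.29 in F2_outcross, against 0.21 and 0.19 over all tested genes. The SD was larger in WT in 36 of 44 members, and in 52.4% of all genes. Without WT replicate 2 it was larger in WT in 26 of 44 (35.2% of all genes), and without WT replicate 1 in 32 of 44 (49.2% of all genes).

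The number of calls turned on WT replicate 2. That library was singled out by its values in these same members, so counts without it are no separate support for the lean. Without it, 20 of 44 members were called lower and 0 higher, beside 4.00% of all genes called lower in the same fit. They were 10 of 11 GTPases, all but Irgm1, with 7 antiviral genes (Ifi27l2a, Ifit2, Isg15, Oas1a, Oas3, Rtp4 and Zbp1) and 3 regulators (Irf7, Trim30a and Usp18). The median difference was then -0.71 for all members, -1.13 for the GTPases, -0.69 for the antiviral genes and -0.27 for the regulators. Without WT replicate 1, no member was called in either direction by limma, where 39 of all 14390 genes were called lower and 92 higher. In that fit 11 members had an unadjusted p under 0.05, all lower, beside 7.51% of all genes lower at that p, and the medians were -0.34, -0.60, -0.34 and -0.13. The GTPases kept the most negative median and the regulators the least in both cases, and 11 of 11 GTPases stayed negative. Without F2_outcross replicate 3, Ifi47 and Irgm2 were called lower, beside 1.03% of all genes called lower in that fit. Without each of the other 5 libraries no member was called by limma, beside 0.236% to 0.771% of all genes called lower. At an unadjusted p under 0.05, 11 to 18 members were lower in those fits (8.66% to 10.3% of all genes).

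**Figure D4:**
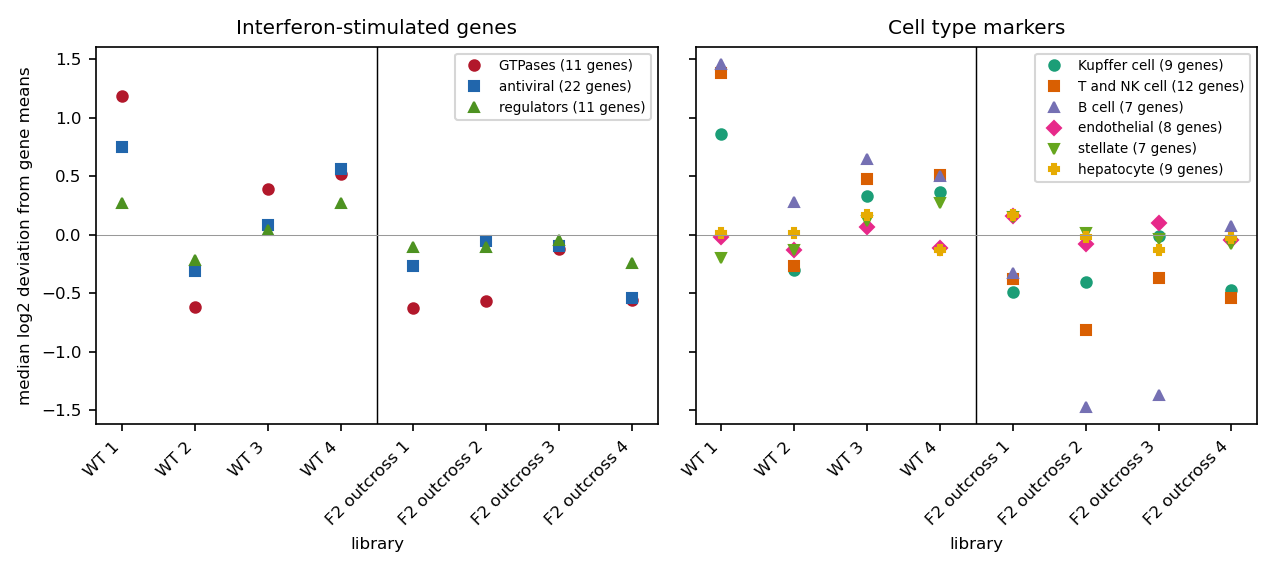
Median log2 deviation from the mean of the 8 libraries (y axis) in each library (x axis) for the GTPases, antiviral genes and regulators (left) and for marker lists of liver cell types (right), with 1 point per list and library. WT replicate 1 is the highest and WT replicate 2 the lowest of WT for the GTPases. The same holds for markers of Kupffer cells (medians of 0.86 and -0.30), T and NK cells (1.38 and -0.27) and B cells (1.46 and 0.28). It does not hold for the hepatocyte, endothelial and stellate cell markers.

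Genes of the pathway outside the list of members were taken from lists of ligands, receptors, transcription factors, sensors, brakes and other interferon-stimulated genes. Of 137 listed, 114 were tested, of which 4 were called lower and 1 higher, where 1.06% and 1.60% of all genes were. Without WT replicate 1 all 5 calls were lost (adjusted p = 0.0927 to 0.139 in limma), and without WT replicate 2 all 5 were kept, among 25 lower and 4 higher. Calls over all 14390 genes moved the same way, with 39 lower and 92 higher without WT replicate 1 and 576 lower and 497 higher without WT replicate 2. The 5 calls were also lost without F2_outcross replicates 1 or 2 or WT replicates 3 or 4, and 2 were kept without F2_outcross replicate 3 or 4. The genes called lower were all among 73 other interferon-stimulated genes. Of these 73, 65 had a negative difference, against 51.1% of all tested genes, with a median of -0.33. The other lists leaned less or not at all. Negative were 6 of 14 sensors and adaptors (median 0.05) and 4 of 8 brakes (median -0.0005). So were 6 of 10 transcription factors (median -0.13), 6 of 8 receptors and kinases (median -0.12) and the 1 ligand tested, Ebi3 (-0.63). Gbp2b, also a guanylate-binding protein, had 2461, 598, 1289 and 1858 in WT and 272, 165, 858 and 152 in F2_outcross, with F2_outcross replicate 3 above WT replicate 2 (-2.30 ± 0.52, adjusted p = 0.0377). Gbp10 had 244, 88.9, 209 and 138 in WT and 66.7, 53.7, 86.7 and 76.0 in F2_outcross (-1.17 ± 0.28, adjusted p = 0.0499). In Gbp10 the closest libraries were 88.9 and 86.7, with no overlap.

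Ube2l6, the enzyme that passes ISG15 to its targets, had 2785, 2345, 2646 and 2284 in WT and 1413, 1883, 1679 and 1901 in F2_outcross (-0.55 ± 0.12, adjusted p = 0.0315). Its groups did not overlap, and WT replicate 4 was the lowest of WT, with replicate 2 next. Slfn2, a regulator of immune cell quiescence, had 375, 165, 191 and 224 in WT and 104, 98.8, 147 and 74.1 in F2_outcross (-1.13 ± 0.26, adjusted p = 0.0405). The gene called higher was Mavs, the mitochondrial adaptor of the RNA sensors, with 2593, 3458, 2946 and 2867 in WT and 4010.4, 4380.4, 4447 and 3695 in F2_outcross (0.48 ± 0.11, adjusted p = 0.0415). Every F2_outcross library was above every WT library for Mavs. None of 10 transcription factors (5 with an unadjusted p under 0.05) and none of 8 signalling brakes (2 with an unadjusted p under 0.05) passed the test in limma. Cish, a brake on cytokine receptors, came closest among the brakes, at 972 ± 489 in WT and 275 ± 224 in F2_outcross (SD, n = 4 each; -2.10 ± 0.54, adjusted p = 0.0622).

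Markers of Kupffer cells and lymphocytes were also lower in F2_outcross by their medians. The labels name hepatocytes, and hepatocyte markers were abundant, but markers of Kupffer cells, lymphocytes, endothelial cells and stellate cells were all present, and no marker list held a gene at 0 in every library. The 9 Kupffer cell markers summed to 17733 to 40883 normalized reads in WT and 15593 to 22100.1 in F2_outcross; 9 of 9 were negative with a median of -0.58, 8 had an unadjusted p under 0.05 and 0 passed the test in limma. Clec4f, a lectin found on Kupffer cells, had 11049, 5388, 7507 and 8301 in WT and 5087, 5387, 6408 and 4671 in F2_outcross. WT replicate 1 was again the highest and WT replicate 2 the lowest of WT, at the level of F2_outcross replicate 2. The median deviation of the list was 0.86, -0.30, 0.33 and 0.36 in WT replicates 1 to 4 and -0.49, -0.41, -0.01 and -0.47 in F2_outcross replicates 1 to 4, next to the GTPase values above. This order within WT was not particular to Kupffer cells. Markers of T and natural killer cells had 1.38, -0.27, 0.48 and 0.51 in WT replicates 1 to 4, and monocyte and plasmacytoid dendritic cell markers took the same order. With limma, 9 of the 9 Kupffer cell markers were called lower without WT replicate 2 and 0 without WT replicate 1 (adjusted p = 0.152 to 0.562), 2 without F2_outcross replicate 3 and 0 without each of the other libraries. Of all genes, 4.00% were called lower without WT replicate 2, 0.271% without WT replicate 1 and 1.03% without F2_outcross replicate 3.

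Of 12 tested markers of T and natural killer cells, the producers of interferon gamma, 12 were negative with a median of -1.02 and 2 were called lower, where 1.06% of all genes were. Gzma, a granule protease of these cells, had 125, 51.5, 56.4 and 64.7 in WT and 27.2, 18.2, 33.0 and 25.3 in F2_outcross (-1.42 ± 0.30, adjusted p = 0.0304). Nkg7, a granule membrane protein, was at 50.5 ± 11.2 in WT and 23.3 ± 6.53 in F2_outcross (SD, n = 4 each; adjusted p = 0.0438). The list summed to 378 to 1092 in WT and 254 to 390.2 in F2_outcross, and B cell markers to 373 to 806 in WT and 149 to 336 in F2_outcross. Of the markers of other immune cells, 1 of 5 neutrophil (S100a8) and 2 of 7 B cell genes (Ighm and Ighd) were called lower, 0 of 5 monocyte, 0 of 4 plasmacytoid and 0 of 3 conventional dendritic cell genes were called, and their medians were -1.29, -1.44, -0.36, -0.39 and -0.66. Erythroid markers had a median of -0.90 with 0 of 5 called, and 1 of 4 cholangiocyte markers, Spp1, was called higher. Without WT replicate 1 all 6 calls among the marker lists, Gzma and Nkg7 included, were lost (adjusted p = 0.0677 to 0.141 in limma), and without WT replicate 2 all 6 were kept. They were lost too without F2_outcross replicate 1 or WT replicate 4, and 1 to 4 were kept without each of the others. Over all 14390 genes, 39 were called lower and 92 higher without WT replicate 1, and 576 lower and 497 higher without WT replicate 2. The median difference was -0.06 for 9 hepatocyte, 0.06 for 8 endothelial and -0.02 for 7 stellate cell markers, and none of these genes was called. The hepatocyte markers went both ways, from -0.52 to 0.56, with 1 lower and 3 higher at an unadjusted p under 0.05, and 1 endothelial marker, Lyve1, was higher at that p (0.74), where 1589 of all 14390 genes were lower and 1444 higher. In whole tissue, fewer cells of a type and less RNA per cell cannot be told apart, and the part of these cell types in the differences of the interferon-stimulated genes was not tested.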

How the data were processed

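Liver RNA, isolated with a lipid-tissue kit, was made into strand-specific libraries, per the labels' protocols. Tools named in the submitters' processing notes are cutadapt, HISAT2 and DESeq2, with build GRCm38; their versions, the counter and the strand it used were not given in the sources used here. The deposited table holds log2 values. Its lowest value, -3.32, is log2 of 0.1, and all values became whole reads within 0.001 after 0.1 was subtracted and each library's step divided out. Values were therefore returned to normalized reads, log2(normalized reads + 1) was taken, and genes reaching 10 normalized reads in 4 or more libraries were tested with limma 3.58.1 in R 4.3.3 (lmFit, eBayes with a mean-variance trend, group as the only term). The plan had assumed a linear table. The 395 lines without a symbol (0.611% to 1.22% of reads, the most in WT replicate 2) were left out. Positions and exonic lengths are from GENCODE M21 (GRCm38), promoters from RefSeq. Replicate numbers follow accession order and only name libraries. The script was tested on simulated data.

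The members and all gene lists were chosen with earlier results of these data known, so the lean of the members is no independent support for anything seen before. Values per library are given for members that passed the test or had an unadjusted p under 0.05 and for the 4 most abundant of each role; among other pathway genes, for those called, with up to 4 per list. Alternatives were other pseudocounts, filters and scalings, voom on the recovered reads, and leaving out each library; for pathway genes and cell type markers the last was added after seeing the data.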

Additional observations from a re-analysis of the deposited data

Results flagged for a closer look

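In each group of 4 libraries, the highest and lowest values of the 44 members were examined for a library far from the rest by Dixon's criterion (gap to the next library over the group's range, 95% level), in 88 groups. About 1 in 20 groups is picked out by chance, and 3 were. Irgm2 in F2_outcross had 1663 normalized reads in replicate 3, with the others at 1016 to 1085. Gbp3 in F2_outcross had 224 in replicate 3, with the others at 144 to 150.1. Parp9 in WT had 1503 in replicate 2, with the others at 1954 to 2033. Without F2_outcross replicate 3, Irgm2 passed the test (-1.20 ± 0.25, adjusted p = 0.0357 from limma), and Gbp3 did not. That library was flagged by its high values in these same 2 genes, so the call of Irgm2 without it is no separate support.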

How the results depend on the processing

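No paired analysis was possible because the labels give no replicate numbers that tie libraries across groups. Of all tested genes, 153 were called lower and 230 higher (383 in all), and 2 members lower. Without any filter 122 genes (40 lower, 82 higher) and 0 members were called, with 24674 genes tested and 12 members lower at an unadjusted p under 0.05; voom on recovered reads called 1 member, Ifi47. Upper quartile scaling called 208 genes lower and 198 higher, and 2 members lower. Leaving out 1 library gave 111 to 1073 genes and 0 to 20 members called lower. The 1073 and the 20 came without WT replicate 2; without F2_outcross replicate 3 it was 346 genes and 2 members (Ifi47 and Irgm2), and without each of the other 6 it was 0 members, with 11 to 18 at an unadjusted p under 0.05. Among the fits that left out 1 library, Ifi27l2a was called only in the one without WT replicate 2. No alternative called a member higher. Directions turned in 6 members with differences near 0. Ifih1 was -0.037 under quantile normalization and -0.032 under upper quartile scaling. When single libraries were left out, Ifih1 ranged from -0.14 to 0.097, Bst2 from -0.15 to 0.0066, Dtx3l from -0.014 to 0.081, Ifi27 from -0.084 to 0.12, Oasl1 from -0.25 to 0.14 and Stat2 from -0.12 to 0.14. The causes were not tested. Depth limits the members of lowest count, Oas3 and Tgtp2, each with 9 reads in its lowest library.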
